A study of Mus musculus with 36 samples.

Results

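Transcripts of 10 integrin subunits were followed in 36 bulk RNA-seq libraries of mouse intestinal organoids. The alpha chains were Itga2, Itga3, Itga5, Itga6 and Itgav, and the beta chains were Itgb1, Itgb4, Itgb5, Itgb6 and Itgb8. The 10 genes were given as a list of symbols, drawn up with earlier results of these data known, and each matched 1 Ensembl identifier among the 52636 genes of the count tables. All 10 passed the filter on low counts that left 15497 genes for testing. All 10 also averaged at least 0.5 CPM, the counts of a gene scaled to the size of its library over the 36 libraries. A gene below that limit was taken as not detected.

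The organoids came from jejunal crypts of C57BL/6 mice and were kept in IntestiCult, here called complete media. Freshly passaged crypts were cultured for 2 days in complete media, in conditioned medium of quiescent fibroblasts (QCM), in conditioned medium of senescent fibroblasts (SCM), or in complete media with added Wnt5a, a noncanonical Wnt ligand. The conditioned media came from mouse embryonic fibroblasts, arrested by low serum for QCM or made senescent by X-rays or doxorubicin for SCM. Which senescence inducer stood behind these libraries was not given in the sources used here. Every culture received an antibody. IgG was given with all 4 media, and anti-Ptk7 with SCM and with Wnt5a, which made 6 groups of 6 libraries each, numbered 1 to 6. SCM, QCM and Wnt5a without further mention stand for the cultures with IgG. Anti-Ptk7 binds Ptk7, a receptor of noncanonical Wnt signaling. The comparisons asked what QCM, SCM and Wnt5a did relative to complete media, and whether anti-Ptk7 altered the response. The crypts came from 6 mice, and libraries with the same number were taken as paired. The cultures held epithelium without the stroma, muscle, nerves and immune cells of the tissue, which limits them as a model of the intestine.

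Integrins are transmembrane receptors made of 1 alpha and 1 beta chain, and the pair decides which matrix protein is bound. In gut epithelium the alpha-3/beta-1, alpha-6/beta-1 and alpha-6/beta-4 pairs bind laminins of the basement membrane, and alpha-6/beta-4 anchors keratin filaments through the hemidesmosome. Chains that pair with alpha-v bind RGD proteins such as fibronectin and vitronectin, and its pairs with beta-6 and beta-8 release active TGF-beta from its latent complex.

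The libraries held 9581589 to 21029769 counts, with a median of 13490071. Summed over 7 epithelial markers (Epcam, Cdh1, Vil1, Krt8, Krt18, Krt19 and Cldn7), a library in complete media held 9620 to 12822 CPM, and a library of Wnt5a + IgG held 15922 to 28864 CPM. SCM + IgG lay between 13831 and 21075 CPM, and QCM + IgG between 11539 and 15310 CPM. Of the 7, Krt8, Krt18 and Krt19 passed higher in SCM and in Wnt5a, Cdh1 passed in Wnt5a, and Epcam, Vil1 and Cldn7 passed in neither. The part of this change in the results for the subunits was not tested. Markers of fibroblasts summed to at most 7.36 CPM in any library, with Col3a1 and Dcn at 0 in all 36. Pdgfrb was the 1 marker of this list over the detection limit, at a mean of 2.30 CPM and at most 6.34 CPM. The smooth muscle, endothelial, and nerve and glia lists reached at most 3.08, 2.83 and 4.51 CPM. Tagln of smooth muscle and Snap25 of nerve and glia were over the detection limit, at means of 1.19 and 0.656 CPM. The immune list reached 9.57 to 19.3 CPM, most of it Csf1r, with Adgre1 at 0 in all 36 libraries.

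Per kb of coding exons, a scale that allows for the length of a gene, Itgb1 had the highest level in complete media, 138 ± 6.72 CPM per kb (mean ± SD, n = 6 here and for each group mean that follows). Itga6 followed at 80.5 CPM per kb. Itgb4 came next, Itga3, Itgb6 and Itga2 lay between 26.8 and 14.6 CPM per kb, and Itgav and Itgb5 at 9.07 and 5.85 CPM per kb. Itga5 and Itgb8 were near the limit of detection, at 0.406 and 0.128 CPM per kb. Among the 5 alpha chains Itga6 made up 61.3 ± 2.51% of the summed CPM per kb, and among the 5 beta chains Itgb1 made up 72.4 ± 4.41%. Itgb1, Itga6 and Itgb4 kept ranks 1 to 3 in all 6 groups, while Itgb6 moved from rank 5 in complete media to rank 4 in SCM and Wnt5a, above Itga3. These orders depend on the length used. Per kb of all exons, UTRs included, Itgb6 stayed below Itga3 (22.3 and 27.6 CPM per kb in Wnt5a), and Itgb4 lay above Itga6 in SCM and Wnt5a. The 6 libraries of each group, with their mean and SD, are shown gene by gene in the plot of CPM by group.

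**Figure D1:**
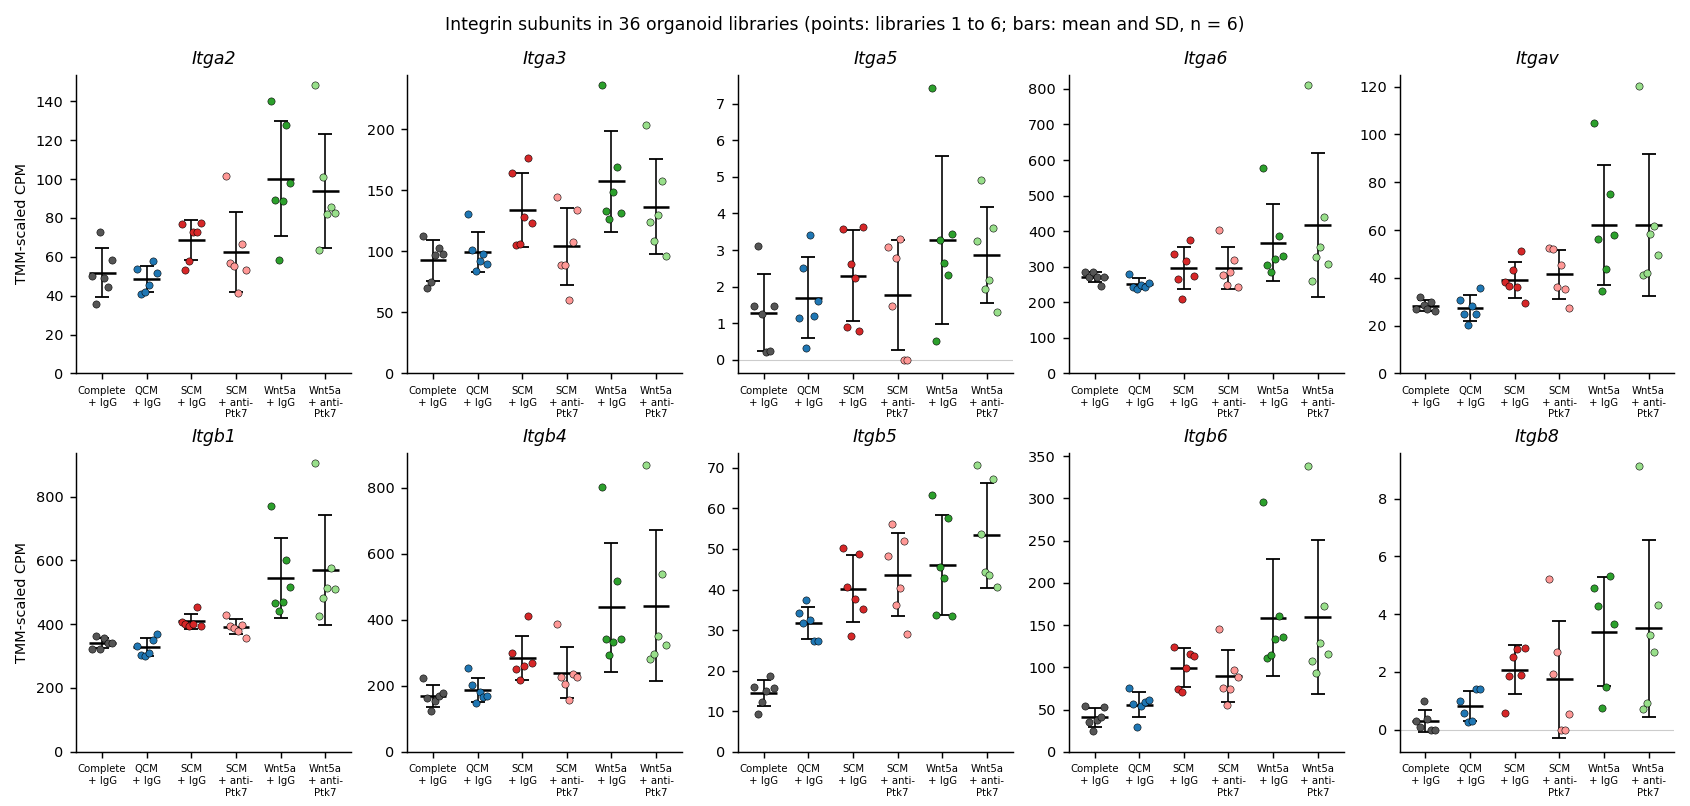
TMM-scaled CPM (linear y axis, a separate scale for each gene) of the 10 integrin subunits in the 6 groups, with 1 point per library and bars for the mean and SD (n = 6). The Itgb5 libraries of QCM, SCM and Wnt5a all sit above the highest complete media library, at 18.6 CPM, whereas the QCM libraries of the other 9 subunits overlap those of complete media (1.74% of all genes do not overlap there).

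Of the 10 subunits 1 passed the test (edgeR quasi-likelihood, adjusted p under 0.05 and a change of more than 1.5-fold) in QCM against complete media, 4 in SCM and 8 in Wnt5a, all of them higher than in complete media. The share of all 15497 genes that passed was 0.374% in QCM (0.355% higher), 6.08% in SCM (4.96% higher) and 10.2% in Wnt5a (8.29% higher). The median log2 fold change of the 10 subunits was 0.12, 0.64 and 1.23 in these comparisons, against 0.02, 0.01 and 0.01 over all genes tested. The libraries of a group and of complete media did not overlap for 1 subunit in QCM, 3 in SCM and 6 in Wnt5a, beside 1.74%, 6.29% and 11.7% of all genes. The 3 comparisons share the same complete media libraries. On a quantile-normalized scale with voom and limma, the higher and lower calls over all genes were 550 and 297 in SCM and 1015 and 562 in Wnt5a, beside 768 and 174, and 1285 and 291, with edgeR. In bulk RNA, fewer cells of a type and less RNA per cell cannot be told apart, and this holds for each difference given here.

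Itgb5, a partner of alpha-v and a vitronectin receptor (GRCm38 chr16:33829665-33949338, plus strand), was the subunit that passed in QCM. Its libraries in complete media ranged from 9.21 to 18.6 CPM with a median of 15.4 CPM. The range was 27.2 to 37.3 CPM (median 32.02) in QCM, 28.6 to 50.2 CPM (median 39.1) in SCM and 33.6 to 63.3 CPM (median 44.2) in Wnt5a. None of these 3 groups overlapped complete media, and their own ranges overlapped one another. The rise was 1.13 on the log2 scale (SE 0.18, edgeR adjusted p = 0.000696) in QCM, 1.47 (SE 0.19, edgeR adjusted p = 1.22e-06) in SCM and 1.67 (SE 0.19, edgeR adjusted p = 6.41e-08) in Wnt5a. The mean in complete media was 14.5 ± 3.27 CPM, and those of the 5 other groups lay from 31.7 ± 3.95 CPM in QCM to 53.4 ± 12.9 CPM in Wnt5a + anti-Ptk7.

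Itgb6, the epithelial partner of alpha-v that activates latent TGF-beta (chr2:60598292-60722643, minus strand), rose in SCM and in Wnt5a. Complete media held 25.1 to 53.9 CPM (median 39.3), QCM 29.6 to 74.9 CPM (median 57.8), SCM 71.2 to 124 CPM (median 106) and Wnt5a 111 to 296 CPM (median 135). The QCM libraries overlapped complete media, and the SCM and Wnt5a libraries did not. Itgb6 was 1.28 higher on the log2 scale in SCM (SE 0.28, edgeR adjusted p = 0.00189) and 1.95 higher in Wnt5a (SE 0.28, edgeR adjusted p = 5.5e-06). In QCM its log2 fold change was 0.44 (SE 0.28, edgeR adjusted p = 0.547), with 6 of 6 numbers higher.

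Itgav, the alpha chain that pairs with beta-5, beta-6 and beta-8 (chr2:83724397-83806916, plus strand), rose in Wnt5a. Its libraries held 25.9 to 32.1 CPM (median 27.9) in complete media, 29.5 to 51.3 CPM (median 37.4) in SCM and 34.5 to 105 CPM (median 56.9) in Wnt5a. The Wnt5a libraries all lay above complete media, and the SCM libraries overlapped it. The log2 difference was 1.13 in Wnt5a (SE 0.23, edgeR adjusted p = 0.000396) and 0.47 in SCM (SE 0.22, edgeR adjusted p = 0.191). With QCM Itgav averaged 27.5 ± 5.34 CPM beside 28.4 ± 2.31 CPM in complete media.

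Itgb8, the third beta chain of alpha-v in this list and another activator of latent TGF-beta (chr12:119158022-119238802, minus strand), stood near the limit of detection in complete media. Its libraries there held 0 to 1.00 CPM (median 0.204), which is 0 to 12 counts, and 5 of 6 were under 0.5 CPM. Libraries 5 and 6 had 0 counts, which allow up to 0.234 and 0.222 CPM, for counting error only. SCM held 0.586 to 2.84 CPM (median 2.20) and Wnt5a 0.739 to 5.31 CPM (median 3.97), and both overlapped complete media. Itgb8 was 2.79 higher on the log2 scale in SCM (SE 0.86, edgeR adjusted p = 0.0302) and 3.49 higher in Wnt5a (SE 0.86, edgeR adjusted p = 0.00315), folds that are imprecise at such low counts. With voom and limma, the test used for the study, the SCM difference was 3.14 with an adjusted p of 0.0772. It also missed the threshold without SCM + IgG library 6 or complete media library 2, 4, 5 or 6, at 2.50 to 2.85 on the log2 scale and edgeR adjusted p = 0.0506 to 0.0692.

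The laminin receptor chains Itgb4 and Itga6 form 1 receptor, and Itgb4 rose in SCM and in Wnt5a while Itga6 did not pass in either. Itgb4, whose long cytoplasmic tail binds plectin in the hemidesmosome (chr11:115974709-116008412, plus strand), held 124 to 225 CPM (median 165) in complete media. It held 218 to 410 CPM (median 263) in SCM and 292 to 804 CPM (median 343) in Wnt5a. The SCM libraries overlapped complete media, and the Wnt5a libraries did not. On the log2 scale it rose by 0.76 in SCM (SE 0.25, edgeR adjusted p = 0.0396) and 1.38 in Wnt5a (SE 0.25, edgeR adjusted p = 0.00012). The SCM call was near the threshold: without SCM + IgG library 1, 5 or 6 or complete media library 2, 3, 4, 5 or 6, the rise was 0.61 to 0.77 with edgeR adjusted p = 0.0521 to 0.119. With the losses of Itgb8 and the gains of Itga3, the number of subunits called in SCM ran from 2 to 5 when 1 library was left out. The lincRNA B230344G16Rik lies inside Itgb4 on the opposite strand (chr11:115988052-115993715), at a mean of 25.1 CPM. Whether counting used strand was not given in the sources used here, so reads of the 2 genes cannot be told apart.

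Itga6 (chr2:71745616-71858416, plus strand), the partner of beta-4 and of beta-1, held 247 to 286 CPM (median 272) in complete media and averaged 252 ± 15.2 CPM in QCM, 296 ± 58.7 CPM in SCM and 368 ± 109 CPM in Wnt5a. The log2 difference was 0.12 in SCM (95% interval -0.24 to 0.49, edgeR adjusted p = 0.736) and 0.43 in Wnt5a (95% interval 0.07 to 0.80, edgeR adjusted p = 0.0936).

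Itga3, the alpha chain of the main laminin-332 and laminin-511 receptor with beta-1 (chr11:95044474-95076801, minus strand), held 70.4 to 113 CPM (median 97.3) in complete media. It held 105 to 177 CPM (median 126) in SCM and 127 to 236 CPM (median 141) in Wnt5a. The Wnt5a libraries did not overlap complete media, and the SCM libraries did. The log2 rise in Wnt5a was 0.77 (SE 0.19, edgeR adjusted p = 0.00301). In SCM the log2 fold change was 0.53 (SE 0.19, edgeR adjusted p = 0.0581), with 6 of 6 numbers higher. Without SCM + IgG library 3 or complete media library 1 it passed, at 0.59 and 0.60 with edgeR adjusted p = 0.042 and 0.049.

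Itgb1, the common beta chain that pairs with alpha-2, alpha-3, alpha-5, alpha-6 and alpha-v (chr8:128685654-128733200, plus strand), held 322 to 362 CPM (median 342) in complete media. It held 395 to 454 CPM (median 401) in SCM and 441 to 770 CPM (median 494) in Wnt5a, with no overlap with complete media in either. Its log2 rise in Wnt5a was 0.67 (SE 0.12, edgeR adjusted p = 0.000128), and the log2 fold change in SCM was 0.26 (SE 0.12, edgeR adjusted p = 0.172). Without Wnt5a + IgG library 1 the Wnt5a rise was 0.55 (edgeR adjusted p = 0.00114), below the fold-change limit of 1.5.

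Itga2, which forms the collagen receptor alpha-2/beta-1 (chr13:114833081-114932100, minus strand), held 35.8 to 72.8 CPM (median 49.7) in complete media, 53.4 to 77.2 CPM (median 72.8) in SCM and 58.5 to 140 CPM (median 93.4) in Wnt5a. Both groups overlapped complete media. Itga2 was 0.95 higher on the log2 scale in Wnt5a (SE 0.20, edgeR adjusted p = 0.000625), and 5 of 6 numbers were higher. In SCM the log2 fold change was 0.40 (SE 0.20, edgeR adjusted p = 0.204). Itga5, the alpha chain of the fibronectin receptor (chr15:103344286-103366763, minus strand), was close to the limit of detection in every group, with means of 1.29 ± 1.06 CPM in complete media, 2.29 ± 1.24 CPM in SCM and 3.27 ± 2.29 CPM in Wnt5a. Its log2 fold changes of 0.85 in SCM and 1.34 in Wnt5a had edgeR adjusted p = 0.480 and 0.163, and 95% intervals of -0.48 to 2.18 and 0.01 to 2.67.

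**Figure D2:**
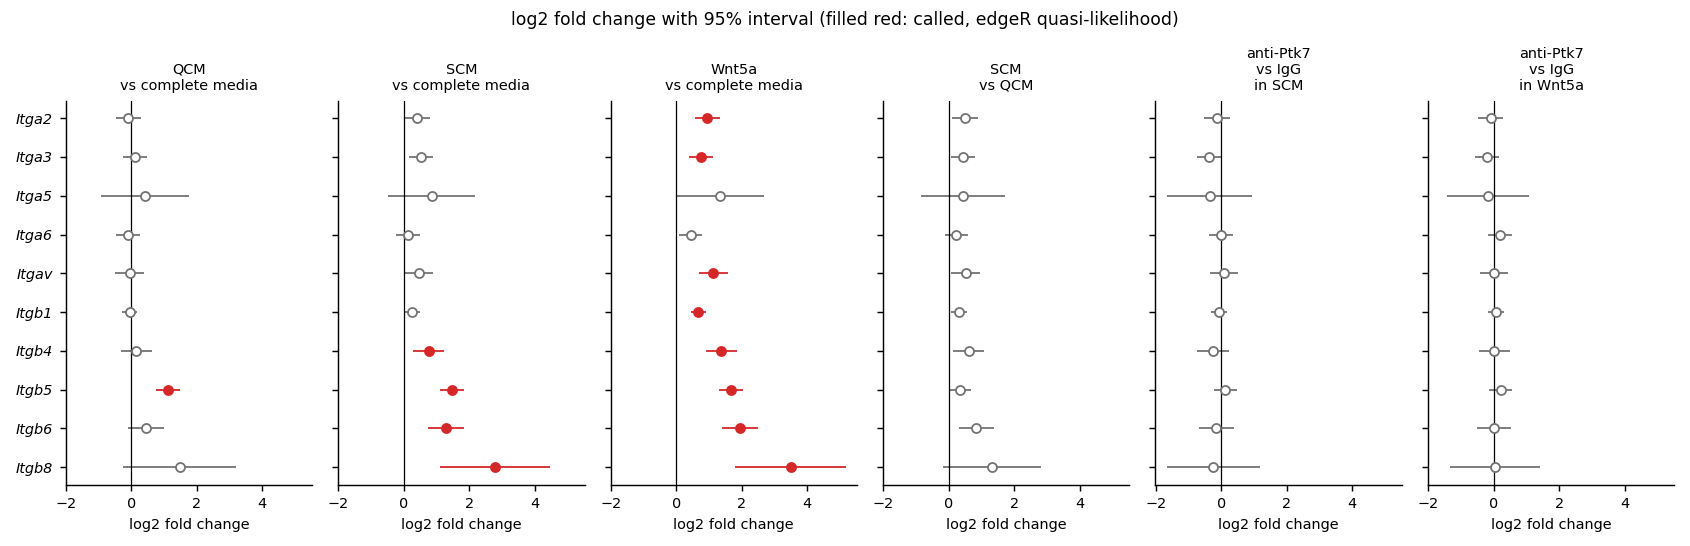
log2 fold change of the 10 subunits with 95% intervals in 6 comparisons on a common x axis, filled where the gene passed the edgeR test. Passing subunits number 1, 4 and 8 in the panels for QCM, SCM and Wnt5a against complete media, and 0 in the panels for SCM against QCM and for anti-Ptk7.

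The libraries numbered 1 were the highest of their group for 9 of the 10 subunits in Wnt5a + IgG, for 9 in Wnt5a + anti-Ptk7 and for 8 in SCM + anti-Ptk7. Complete media and QCM had theirs highest for 4 subunits each, and SCM + IgG for 2. In a fit without the 6 libraries numbered 1, chosen after these values were seen, 1, 4 and 7 subunits passed in QCM, SCM and Wnt5a against complete media. The shares of all genes that passed in this fit are not reported here, so its counts stand without a background. Itgb1 was the subunit lost in Wnt5a, at 0.53 on the log2 scale with edgeR adjusted p = 1.1e-05, again below the fold limit.

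Sequence upstream of the start site is shown for 3 subunits that differ in response: Itgb5, which passed in all 3 media, Itgb6, with the largest log2 rise in Wnt5a apart from the barely detected Itgb8, and Itgb1, the common chain with the smallest log2 rise among the 8 that passed in Wnt5a. RefSeq promoter windows (GRCm38.p6, 250 bases before to 50 after a start) were found for 8 of the 10 genes, and none for Itga6 or Itgb4. Each line gives the part of the window that lies before the annotated gene, 5′ to 3′ on the strand of the gene. Capitals mark the TEAD core GGAATG, the AP-1 site TGANTCA or the GC box GGGCGG, each searched on both strands.
Itgb5, GRCm38.p6 chr16:33829415-33829664, plus strand: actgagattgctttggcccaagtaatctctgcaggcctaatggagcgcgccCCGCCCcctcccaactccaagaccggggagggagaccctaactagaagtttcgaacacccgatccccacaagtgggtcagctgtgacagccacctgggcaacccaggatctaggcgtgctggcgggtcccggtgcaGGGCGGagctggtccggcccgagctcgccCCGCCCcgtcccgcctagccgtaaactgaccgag
Itgb6, GRCm38.p6 chr2:60722644-60722853, minus strand: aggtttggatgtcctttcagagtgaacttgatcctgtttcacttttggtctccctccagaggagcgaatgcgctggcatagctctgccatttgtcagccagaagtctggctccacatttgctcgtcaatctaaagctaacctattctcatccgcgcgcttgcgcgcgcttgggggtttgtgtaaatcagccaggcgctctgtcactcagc
Itgb1, GRCm38.p6 chr8:128685404-128685653, plus strand: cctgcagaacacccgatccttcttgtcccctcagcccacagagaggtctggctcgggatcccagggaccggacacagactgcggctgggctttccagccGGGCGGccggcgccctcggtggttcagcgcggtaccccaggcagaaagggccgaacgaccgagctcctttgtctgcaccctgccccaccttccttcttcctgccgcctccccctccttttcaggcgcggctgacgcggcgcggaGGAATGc
The Itgb1 window held 1 TEAD core, 7 bases before the start, and 1 GC box. The Itgb5 window held 3 GC boxes and no TEAD core or AP-1 site, and the Itgb6 window shown held none of the 3 motifs. Over the whole windows of the 8 genes, the TEAD core occurred in 1 gene, the AP-1 site in 1 (Itga3) and the GC box in 6. Over all 32851 windows of the table the shares with a match were 14.7%, 7.81% and 35.7%. The GC content was 65.7% in the Itgb5 window, 50.3% in that of Itgb6 and 67.3% in that of Itgb1, beside a median of 52.7% over all windows.

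With the beta chains set against each other per kb of coding exons, the share of Itgb1 was 72.4 ± 4.41% in complete media, 65.7 ± 3.84% in QCM, 60.5 ± 3.92% in SCM and 58.2 ± 3.64% in Wnt5a. The share of Itgb6 was 8.88 ± 2.03% in complete media and 16.8 ± 1.92% in Wnt5a, and that of Itgb4 was 15.6 ± 2.38% and 19.7 ± 2.41%. Per kb of all exons the share of Itgb6 was 4.86% in complete media and 9.42% in Wnt5a. Itgb5 had 3.05 ± 0.641% in complete media and 6.38 ± 1.25% in QCM, its highest share among the groups with IgG, and 6.85% in SCM + anti-Ptk7. Among the alpha chains the share of Itga6 was 61.3 ± 2.51% with complete media, 55.0 ± 2.72% after SCM and 53.5 ± 1.75% after Wnt5a. That of Itgav was 6.93% in complete media and 9.51% in Wnt5a. Shares add up to 100% within a family, so the share of 1 chain falls where others rise more, and they are given without a test.

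**Figure D3:**
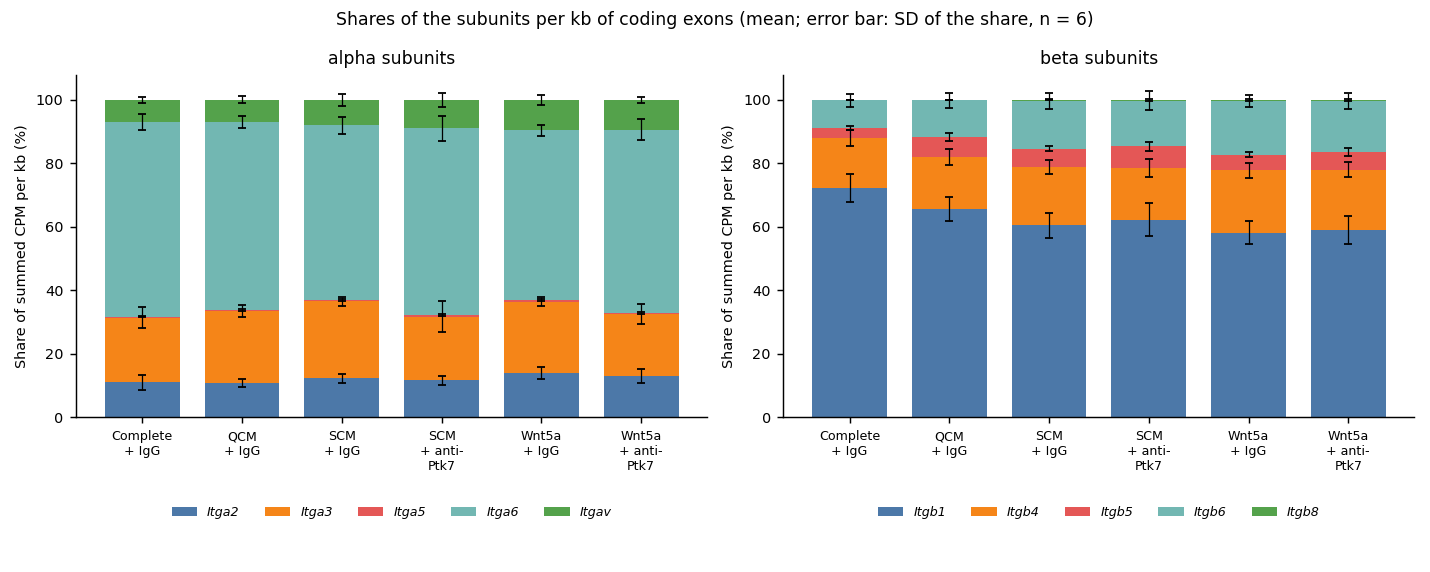
Mean share (y axis, percent) of each subunit in the summed CPM per kb of coding exons of the alpha chains (left) and of the beta chains (right), by group, with error bars for the SD of the share (n = 6). The Itgb1 segment goes from 72.4% in complete media to 58.2% in Wnt5a + IgG, and the Itga6 segment from 61.3% to 53.5%.

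Since the chains act as pairs, 7 ratios of a chain to its partner were compared with complete media in QCM, SCM and Wnt5a (log2 ratio of CPM per kb, with a prior count of 2 in each, two-sided exact permutation tests of 6 against 6 libraries, adjusted over all 21 tests, chosen after the data were seen). The smallest p that these tests can give is 0.00216. Of the 21 tests, 8 had an adjusted p under 0.05.

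The log2 ratio of Itgb4 to Itga6 was -1.44 ± 0.29 in complete media, -1.18 ± 0.20 in QCM, -0.80 ± 0.15 in SCM and -0.53 ± 0.20 in Wnt5a. Neither the SCM nor the Wnt5a libraries overlapped complete media, and 6 of 6 numbers were higher in both. The differences were 0.65 in SCM and 0.91 in Wnt5a (exact permutation test, adjusted p = 0.0114 for each), while that in QCM was 0.26 (exact permutation test, adjusted p = 0.167). The ratio sets 2 chains of 1 receptor against each other within a library.

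Among the alpha-v partners, the ratio of Itgb5 to Itgav was -0.66 ± 0.43 in complete media, 0.56 ± 0.40 in QCM, 0.37 ± 0.35 in SCM and -0.04 ± 0.48 in Wnt5a. Its differences of 1.21 in QCM and 1.02 in SCM had adjusted p = 0.0114 each, without overlap, and that of 0.62 in Wnt5a had adjusted p = 0.0909 (exact permutation tests). The ratio of Itgb6 to Itgav was 0.88 ± 0.48 with complete media, 1.72 ± 0.45 after SCM and 1.75 ± 0.30 after Wnt5a, with adjusted p = 0.0341 and 0.0195 (exact permutation tests). The SCM difference for Itgb6 missed the threshold in 8 of 12 repeats that left out 1 library, with an adjusted p up to 0.0682 by the exact permutation test. The ratio of Itgb8 to Itgav was 2.15 higher in SCM and 2.11 higher in Wnt5a (exact permutation test, adjusted p = 0.0195 for each), at the low counts given for Itgb8. With 0.5 CPM added in place of the prior count, these differences were 1.28 and 1.18, and both still passed. The ratios of Itga2, Itga3 and Itga5 to Itgb1 had adjusted p of 0.2203 or more in the exact permutation tests. With the libraries paired by number, 0 of the 21 tests had an adjusted p under 0.05. The smallest p that 6 pairs allow is 0.0312, which 7 of the 8 ratios and that of Itga3 to Itgb1 in SCM reached, and after adjustment over the 21 tests it was 0.0820 (paired exact permutation tests).

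**Figure D4:**
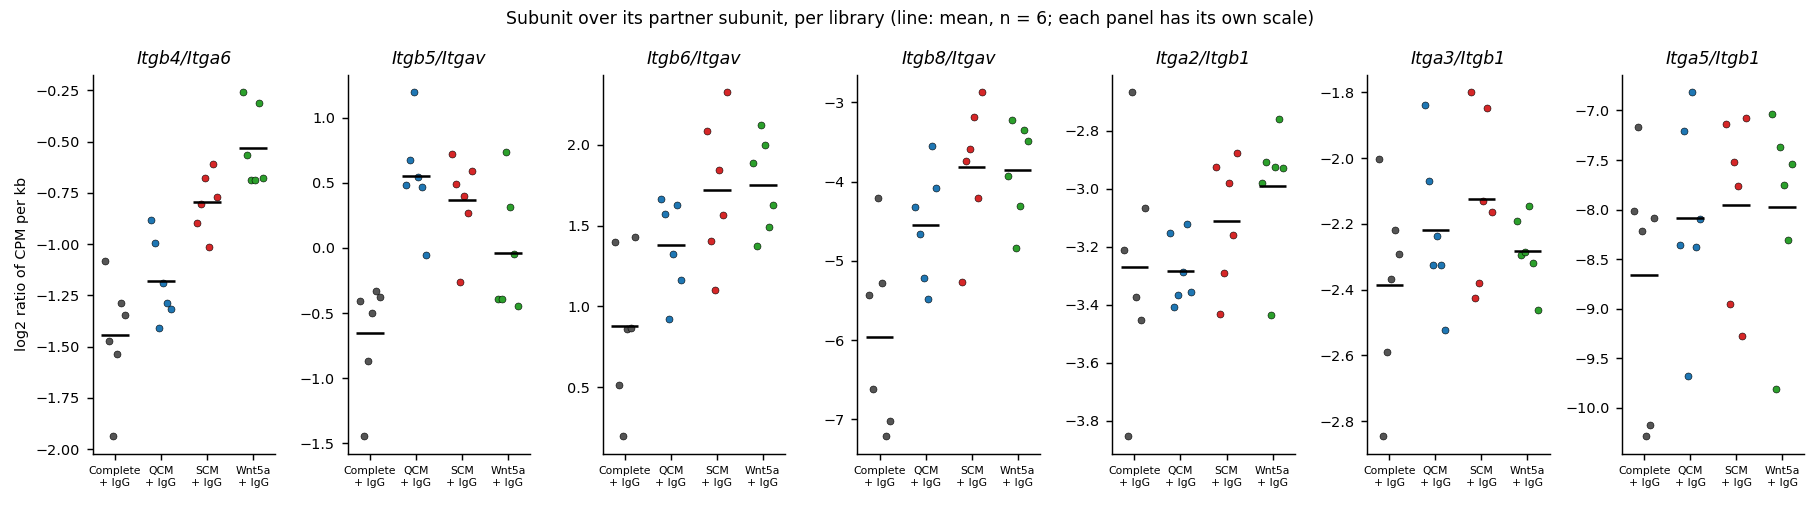
log2 ratio of CPM per kb of coding exons for 7 chain and partner pairs, with 1 point per library and a line for the mean (n = 6), in complete media, QCM, SCM and Wnt5a, all with IgG and each panel on its own y scale. For Itgb4 over Itga6 the SCM and Wnt5a libraries, from -1.02 upward, all lie above the highest complete media library at -1.08.

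Between the conditioned media, SCM against QCM, 0 of the 10 subunits passed the edgeR test, beside 0.903% of all genes. That share stands for 140 genes, a count that ran from 35 to 250 when 1 library was left out. All 10 log2 differences were above 0, from 0.24 (Itga6) to 1.32 (Itgb8), and 6 had an unadjusted p under 0.05, as did 2633 of all 15497 genes. DESeq2 and voom with limma also called 0. Itgb1 was the 1 subunit whose libraries did not overlap, as was the case for 2.19% of all genes, with 301 to 369 CPM in QCM and 395 to 454 CPM in SCM, and its log2 difference was 0.32 (edgeR adjusted p = 0.160). The differences of Itgb6 and Itgb4 were 0.84 (edgeR adjusted p = 0.0987) and 0.61 (edgeR adjusted p = 0.188). With the replicate number as a block both passed, at 0.85 (edgeR adjusted p = 2.83e-05) and 0.60 (edgeR adjusted p = 0.00431), in a fit that called 3.20% of all genes. They also passed when the fit held these 2 groups alone, at 0.85 (edgeR adjusted p = 0.0287) and 0.62 (edgeR adjusted p = 0.0385), beside 1.85% of all genes, and when the libraries numbered 1 were left out, at 0.86 (edgeR adjusted p = 0.0131) and 0.69 (edgeR adjusted p = 0.0189). For the last of these fits the share of all genes is not reported here. Without Wnt5a + anti-Ptk7 library 1, Itgb6 passed as well (0.84, edgeR adjusted p = 0.0398).

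Wnt5a against SCM, a comparison added after the data were seen, had 0 of 10 subunits past the edgeR test, beside 0.690% of all genes. Again the 10 log2 differences were above 0, from 0.20 (Itgb5) to 0.71 (Itgb8), and 5 had an unadjusted p under 0.05, as did 2936 of all 15497 genes. No other tool was run on this comparison. Itgb1 differed by 0.41 (edgeR adjusted p = 0.0571). The block brought Itgb6 past the threshold (0.61, edgeR adjusted p = 0.0053). Leaving out Wnt5a + IgG library 3 brought Itga2 (0.68, edgeR adjusted p = 0.0494) and Itgav (0.80, edgeR adjusted p = 0.0422) past it. The shares of all genes that passed in these fits are not reported here, so these calls stand without a background.

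Anti-Ptk7 against IgG gave 0 of 10 subunits past the edgeR test in SCM, beside 1.23% of all genes, and 0 of 10 in Wnt5a, beside 0.884%. These shares stand for 190 and 137 genes, counts that ran from 105 to 232 and from 81 to 157 when 1 library was left out. In both comparisons 0 subunits had an unadjusted p under 0.05, beside 2654 and 2332 of all 15497 genes, and voom with limma and DESeq2 called 0. The log2 differences ran from -0.36 (Itga3) to 0.12 (Itgb5) in SCM and from -0.20 (Itga3) to 0.21 (Itgb5) in Wnt5a. Itga3 held 60.1 to 145 CPM (median 98.6) in SCM + anti-Ptk7 beside 105 to 177 CPM in SCM + IgG, and was lower in 5 of 6 numbers (95% interval of the log2 difference -0.73 to 0.00, edgeR adjusted p = 0.314). In Wnt5a it was lower with anti-Ptk7 in 6 of 6 numbers, at 96.5 to 204 CPM beside 127 to 236 CPM (95% interval -0.57 to 0.16, edgeR adjusted p = 0.678). Itgb5 averaged 43.6 ± 10.3 CPM in SCM + anti-Ptk7 and 40.2 ± 8.27 CPM in SCM + IgG, and the 95% interval of its log2 difference was -0.23 to 0.47. For Itgb6 the interval was -0.69 to 0.38 in SCM and -0.52 to 0.53 in Wnt5a, and for Itgb4 it was -0.73 to 0.23 and -0.46 to 0.49. For Itgb8, which was at 0 in SCM + anti-Ptk7 libraries 4 and 5, the interval of -1.67 to 1.19 left room for more than a 2-fold change either way. In the fit without the libraries numbered 1, no subunit passed for anti-Ptk7 in SCM or in Wnt5a. In SCM, Itga3 and Itgb4 then had log2 differences of -0.43 and -0.44 (edgeR unadjusted p = 0.0119 and 0.0142, adjusted p = 0.155 and 0.171). Itgb5 alone was above 0 there, at 0.15 (edgeR unadjusted p = 0.435). With all libraries, the difference between the anti-Ptk7 effects in Wnt5a and in SCM had 0 subunits past the test, beside 0% of all genes. Its edgeR adjusted p was 0.999 for each subunit, none had an unadjusted p under 0.05, and both other tools called 0.

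Ordered by mean level, complete media or QCM was lowest for each of the 10 subunits, and a Wnt5a group was highest. Most neighbours in that order overlapped and differed by less than the larger of their SDs. The exceptions were complete media and QCM for Itgb5, Itgb8 and Itga6 (QCM the lower for Itga6), complete media and SCM + IgG for Itgav, complete media and SCM + anti-Ptk7 for Itgb1, QCM and SCM + IgG for Itgb5, QCM and SCM + anti-Ptk7 for Itgb6, and SCM + IgG and Wnt5a + IgG for Itgb1. Of these, the Itgb5 libraries of complete media and QCM were the pair without overlap.

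The genes whose log2 CPM over the 36 libraries was most like that of a subunit were listed as a description, since the points share treatments, mice and libraries. Itgb6 was close to Rdh10 and to Sox21 (Pearson r = 0.97 for each). Itgb1 was closest to Atp10b (r = 0.96), the desmosomal cadherin Dsc2 (r = 0.95) and Itgav (r = 0.94), and Itgav to Itgb1, Atp10b (r = 0.93) and the desmosomal cadherin Dsg2 (r = 0.92). After B230344G16Rik (r = 0.99), the lincRNA within the gene, Itgb4 was close to the microtubule-binding Map4 (r = 0.96). Itga2 was closest to the kinase Rock2 (r = 0.89), to Plec and to Map7d1 (r = 0.88 for each), and Itga3 to Myo1c, Sh3d19 and the nuclear lamin Lmna (r = 0.92 for each). Itgb5 was closest to 1700061H18Rik (r = 0.93), Tinagl1 and Ccdc68 (r = 0.92 for each). The highest r for Itgb8 was 0.79, with Clcn3. Between members, Itgb4 and Itgb6 had r = 0.94, as did Itgav and Itgb1.

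Genes for the ligands and partners of these receptors were tested in the same fit, in 6 lists taken from general knowledge. Laminin genes, the ligands of alpha-3/beta-1 and alpha-6/beta-4, passed higher in 5 of 7 tested in SCM and in 6 of 7 in Wnt5a, with medians of 1.21 and 1.58 on the log2 scale. Lama3, the alpha chain of laminin-332, went from 4.29 ± 3.23 CPM in complete media to 72.4 ± 31.9 CPM in SCM (log2 4.10, SE 0.56, edgeR adjusted p = 5.07e-06) and 173 ± 113 CPM in Wnt5a (log2 5.36, SE 0.58, edgeR adjusted p = 3.96e-08). Lama5, the alpha chain of laminin-511, rose by 1.46 in SCM and by 1.58 in Wnt5a on the log2 scale. Of the hemidesmosome partners, 3 of 6 passed higher in SCM and 5 of 6 in Wnt5a, with medians of 0.92 and 1.23. The SCM calls were all keratins, Krt8, Krt18 and Krt14, while Plec and Cd151 passed in Wnt5a and not in SCM. Krt14 was barely detected, at 0.0594 ± 0.0940 CPM in complete media and 1.59 ± 0.806 CPM in SCM. Plec, the plectin that binds beta-4, was at 158 ± 39.4 CPM in complete media and 504 ± 252 CPM in Wnt5a (log2 1.67, SE 0.29, edgeR adjusted p = 8.37e-05). The keratins Krt8 and Krt18, which are also counted among the epithelial markers, rose by 1.08 and 1.00 in SCM and by 1.25 and 1.22 in Wnt5a on the log2 scale.

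The other matrix and latent TGF-beta ligands passed higher in 7 of 13 in SCM and in 10 of 13 in Wnt5a, with medians of 1.41 and 2.41, and 1, the proteoglycan Hspg2, passed lower in Wnt5a. The Hspg2 call was lost without complete media library 6 or Wnt5a + IgG library 1 or 4. The matricellular integrin ligands Ccn2, Thbs1 and Ccn1 rose by 2.27, 1.84 and 1.75 in SCM and by 3.21, 2.97 and 2.75 in Wnt5a on the log2 scale. Of the activators and adhesion complex genes, 3 of 24 passed higher in SCM and 10 of 24 in Wnt5a (7 by voom with limma, 11 by DESeq2), with medians of 0.19 and 0.49. The Wnt5a count was 6 without Wnt5a + IgG library 1. In both media the leading genes by size were Pdlim7 and the tensin Tns4, at log2 1.71 and 1.16 in SCM and 2.40 and 2.09 in Wnt5a, followed by Tns3 (0.69) in SCM and by vinculin, Vcl (0.95), in Wnt5a. Among inactivators and trafficking genes 1 of 11 passed in each medium, Cav1, whose mean of 0.431 CPM over the 36 libraries is under the detection limit, and its call in SCM was lost without SCM + IgG library 1 and by voom with limma. In fits of only the groups compared Cav1 was filtered out, and neither medium had a call in this list. Of the 16 other integrin genes 6 could be tested and 0 passed by edgeR, voom with limma or DESeq2, with 1 at an unadjusted p under 0.05 in SCM and 1 in Wnt5a, and 4 for anti-Ptk7 in SCM. Without complete media library 4, 1 passed in SCM and 1 in Wnt5a against complete media. For anti-Ptk7 in Wnt5a, 1 had an unadjusted p under 0.05, and 1 passed without Wnt5a + IgG library 2 or 6 or Wnt5a + anti-Ptk7 library 2 or 6. Itga1, the most abundant of them, averaged 27.95 CPM, and 3 others, Itga9, Itgam and Itgb7, were detected, at means of 0.688, 1.10 and 0.553 CPM. Of the leukocyte chains, Itgam was at 0 in 1 library and Itgb7 in 11, while Itgax and Itgb2 were at 0 in all 36. The background shares for these counts are those given for the 10 subunits.

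In QCM 0 genes of the 6 lists passed by edgeR, with 0 to 2 a list at an unadjusted p under 0.05. DESeq2 and the block each called 1 hemidesmosome partner and 1 laminin, and voom with limma called 0. In SCM against QCM, Lama3 (log2 2.13, edgeR adjusted p = 0.0216), Pdlim7 (1.15, edgeR adjusted p = 0.0299) and 4 matrix genes passed, among them Thbs1 (1.65, edgeR adjusted p = 0.00281) and Ccn1 (1.24, edgeR adjusted p = 0.0166). With the block the counts were 3 laminins, 2 adhesion complex genes, 8 matrix genes, 3 hemidesmosome partners and 1 trafficking gene. The matrix count fell to 1 without QCM library 2 or 3 and to 2 without QCM library 4 or SCM + IgG library 1, 5 or 6. Lama3 missed the threshold without QCM library 2, 3 or 4 or SCM + IgG library 1, with an adjusted p up to 0.0813, and Pdlim7 missed it without these or SCM + IgG library 5, up to 0.117. The laminin count was 3 without QCM library 1. Ccn2, the last gene inside the threshold (1.81, edgeR adjusted p = 0.04997), missed it in 24 of 36 repeats that each left out 1 library.

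**Figure D5:**
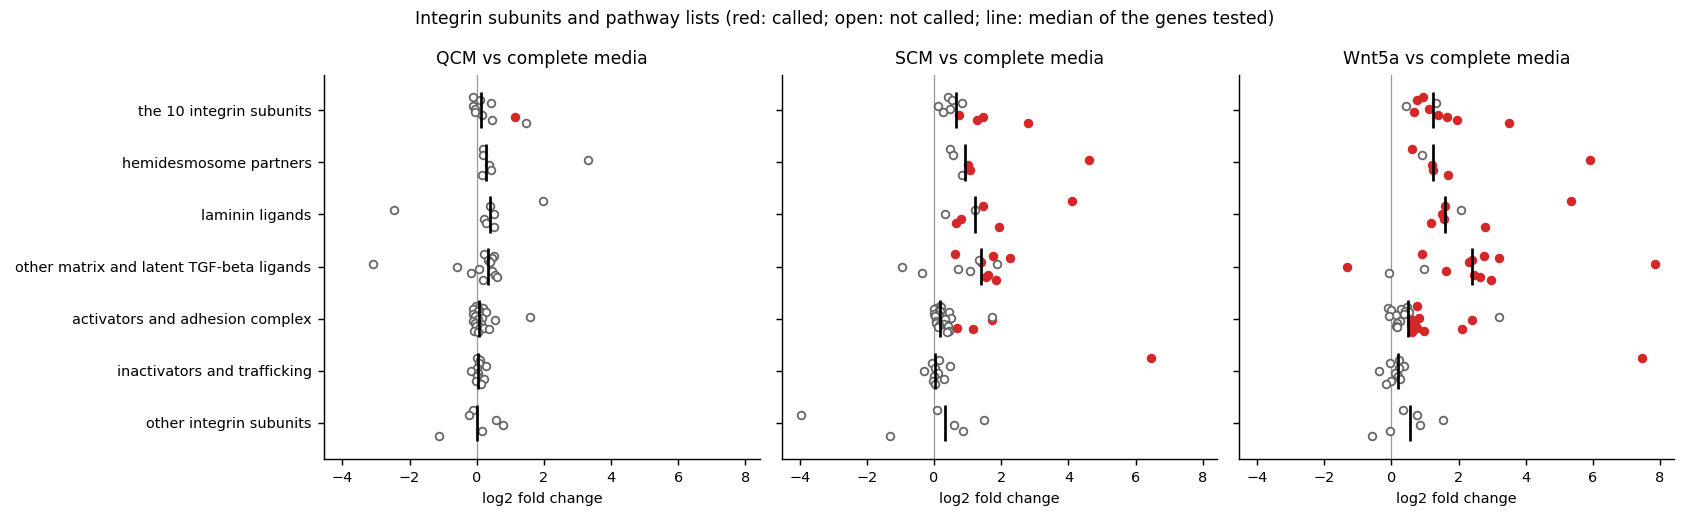
log2 fold change (x axis) of the 10 integrin subunits and of the genes in 6 pathway lists in QCM, SCM and Wnt5a against complete media, with 1 point per gene, red where it passed the edgeR test, and a line at the median of the genes tested. Laminins and other matrix ligands have the highest medians, 1.21 and 1.41 in SCM and 1.58 and 2.41 in Wnt5a, above those of the subunits, 0.64 and 1.23.

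With anti-Ptk7, 3 of the 13 matrix ligand genes passed lower in SCM, beside 0.645% of all genes, and 1 of 13 in Wnt5a, beside 0.432%. In SCM, Ccn2 was at 47.4 ± 21.8 CPM with IgG and 8.48 ± 5.26 CPM with anti-Ptk7 (log2 -2.50, SE 0.52, edgeR adjusted p = 0.00554), Thbs1 had a log2 fold change of -1.09 (edgeR adjusted p = 0.0325) and Npnt, a ligand of alpha-8/beta-1, one of -0.97 (edgeR adjusted p = 0.039). The count was 6 with the replicate block, and it fell to 1 without SCM + IgG library 5 or 6 or SCM + anti-Ptk7 library 2, 3 or 5. In Wnt5a the gene was Ccn2, from 90.9 ± 57.0 CPM to 25.1 ± 15.99 CPM (log2 -1.86, SE 0.49, edgeR adjusted p = 0.0306). This call was lost without Wnt5a + IgG library 1 or 5 or Wnt5a + anti-Ptk7 library 2, 3, 4, 5 or 6, with an adjusted p up to 0.101, and the count was 3 with the block and also 3 without Wnt5a + anti-Ptk7 library 1. Of the other lists, 1 gene passed in SCM, Cav1, which was at 0 in all 6 SCM + anti-Ptk7 libraries and at 0.820 ± 1.04 CPM in SCM + IgG. That call was at edgeR adjusted p = 0.0498, close to the threshold, and voom with limma did not make it. With the block, 2 of 7 laminins also passed lower in SCM and 1 trafficking gene in Wnt5a.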

How the data were processed

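RNA of 36 organoid cultures was made into cDNA with Smart-Seq V4 and into libraries with Nextera XT. The authors aligned the reads with GSNAP (HTSeqGenie) to mm10 (NCBI Build 38) and deposited whole-number counts of reads within the coding sequence of each gene. The annotation and any use of strand were not given in the sources used here. The counts were used as deposited. The table of the whole series held the same counts and was not used beside the single-library tables.

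Counts were scaled by TMM and tested by the quasi-likelihood method of edgeR 4.0.16 (R 4.3.3) in 1 model of 6 group means over the 15497 genes kept by filterByExpr. A gene passed at an adjusted p (Benjamini-Hochberg over all genes tested) under 0.05 and a change over 1.5-fold. Intervals are 1.96 standard errors either way. CPM are TMM-scaled, and log2 CPM add a prior count of 2. Names, positions and coding lengths came from GENCODE (GRCm38), and upstream sequence from RefSeq (GRCm38.p6). Ratios were tested with scipy 1.17.1. Scripts were tested on simulated data. Totals of 9581589 to 21029769 counts limit the precision for Itga5 and Itgb8, and limits for 0 counts (3 counts) cover counting error only.

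The 10 subunits and the gene lists were chosen with earlier results of these data known. All 10 are named. From the lists, at most 3 genes that passed are named per list and comparison, by size of change with a mean log2 CPM over 1, and other genes named were chosen after their values were seen. For each subunit that passed, genes are named from the 3 with the highest Pearson r. Some genes that these rules select are not reported here.

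The design names 6 mice but does not state which number is which mouse. Deviations from the group means had a mean r of 0.092 between libraries of the same number and -0.018 otherwise, with 34 of 90 pairs over 0.1. The libraries were taken as paired, and the fit given first has no block. P-values measure the spread between these libraries. The alternatives were voom with limma 3.58.1 on quantile-normalized values, DESeq2 1.42.0, scaling by the upper quartile or by library size without TMM, testing all genes without the low-count filter, a block for the replicate number, fits that held only the groups compared, calls without the fold limit, and each library left out. The comparison of Wnt5a with SCM, the partner ratios and the fit without the libraries numbered 1 were added after seeing the data.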

Additional observations from a re-analysis of the deposited data

Results flagged for a closer look

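In 3 of 60 groups of 6 libraries, taken over the 10 subunits and 6 groups, 1 library stood apart by Dixon's test at 95%, where chance gives about 1 group in 20. Itgb1 in SCM + IgG library 5 was at 8.83 log2 CPM (454 CPM), above the other 5 libraries at 8.62 to 8.67. Itgb6 in QCM + IgG library 3 was at 4.89 log2 CPM (29.6 CPM), below the others at 5.75 to 6.23. Itgb8 in SCM + IgG library 1 was at -0.45 log2 CPM (0.586 CPM), below the others at 1.01 to 1.58.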

How the results depend on the processing

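The number of subunits past the test in SCM against QCM, 0 of 10, became 2 with the replicate block, 2 with only the groups compared and 2 without the libraries numbered 1. In Wnt5a against SCM, 0 became 1 with the replicate block, a fit whose share of all genes is not reported here. The block, which pairs libraries by number, changed no other call of a subunit, and of the 8 partner ratios past the threshold 0 passed when paired (adjusted p from 0.0820). The paired exact permutation tests had little room to pass, since 6 pairs allow no p under 0.0312, which 7 of these 8 ratios reached. Over all genes, the calls with edgeR and with the block numbered 58 and 178 in QCM against complete media, 140 and 496 in SCM against QCM, 190 and 399 for anti-Ptk7 in SCM, 137 and 255 for anti-Ptk7 in Wnt5a, and 0 and 3 for the difference of the anti-Ptk7 effects. DESeq2 called 260 in SCM against QCM and 295 for anti-Ptk7 in SCM, and fits of only the groups compared called 265 and 86. Without the fold limit the calls over all genes were 102, 1842 and 3386 in QCM, SCM and Wnt5a against complete media, 267 in SCM against QCM, and 422 and 398 for anti-Ptk7 in SCM and in Wnt5a. With 1 library left out, the calls in SCM against QCM numbered 48, 35 and 47 without QCM library 2, 3 or 4, 54, 85 and 91 without SCM + IgG library 1, 5 or 6, and 250 without Wnt5a + anti-Ptk7 library 1. Those for anti-Ptk7 in SCM were 105 without SCM + IgG library 1 and 122 without SCM + anti-Ptk7 library 2, those for anti-Ptk7 in Wnt5a were 81 without Wnt5a + anti-Ptk7 library 5, and those in QCM against complete media were 38 and 37 without complete media library 3 or 4. Per kb of all exons rather than coding exons, the share of Itga6 among the alpha chains in complete media was 53.4%, beside 61.3%. With 1 library left out at a time, the number of subunits called ran from 1 to 1 in QCM, 2 to 5 in SCM and 7 to 8 in Wnt5a against complete media, 0 to 1 in SCM against QCM and 0 to 2 in Wnt5a against SCM, and stayed at 0 to 0 for anti-Ptk7 in SCM, in Wnt5a and for their difference. Itgb8 in SCM missed the threshold with voom and limma (3.14, adjusted p = 0.0772), and Itgb8 was filtered out of the fit of QCM and complete media alone. No subunit that passed changed direction under any alternative run. Among subunits that had not passed, 12 fitted values changed sign with voom and limma, without the low-count filter or with the block. The largest of these ended at an absolute log2 fold change of 0.28. Sign changes in fits that left libraries out are not in that count. Without the libraries numbered 1, Itgb8 for anti-Ptk7 in Wnt5a was at -0.37, beside 0.04 with all libraries. Depth limits Itga5 and Itgb8 most. The causes of these changes were not tested.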
